A study of Mus musculus with 8 samples.

Results

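Phox2a, Hand2, Gata2, Gata3, Isl1, Tbx2, Mycn and Myc are transcription factors of the sympathoadrenal lineage and of neuroblastoma, and their mRNAs were followed in transfected Neuro2a cells. The genes were taken by name from the count table, where each has 1 row, so that the set holds 8 of 55367 genes. Neuro2a is an established mouse neuroblastoma cell line. CRISPR activation (CRISPRa) samples received 750 ng of single guide RNA (sgRNA) plasmid with 750 ng of a plasmid for sadCas9-VP64, a nuclease-dead Cas9 fused to a transcriptional activator, and were sequenced as poly(A)-enriched RNA. The no-sgRNA samples received sadCas9-VP64 without a guide, in an amount the labels do not give, so the guide and any difference in plasmid load cannot be told apart. Both groups thus carry the activator protein, and no untransfected sample is in the labels. Counts of CRISPRa replicates 2, 3 and 5 and of no-sgRNA replicates 2, 3 and 4 were used. Nothing in the labels says that these came from separate cultures, so the p-values measure the spread between these samples, which may be technical.

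Neuroblastoma arises from the neural-crest-derived precursors of sympathetic neurons and adrenal chromaffin cells. In the adrenergic state of this tumour a small set of factors, among them the homeodomain protein PHOX2A, the basic helix-loop-helix protein HAND2, the zinc finger proteins GATA2 and GATA3, the LIM-homeodomain protein ISL1 and the T-box protein TBX2, bind together at enhancers, including those of their own genes. MYCN and MYC bind E-box DNA with their partner MAX and drive genes of growth and ribosome production; amplified MYCN marks a high-risk form of the tumour. A second, mesenchymal state is marked by AP-1, Hippo-pathway and Notch factors. These are general facts about the genes and not results of these samples.

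The proximal promoters are shown because the members are factors that bind DNA near genes of their own set. RefSeq promoter windows (GRCm38.p6, 250 bases before to 50 bases after a start site) were matched for 6 of the 8 genes: Phox2a, Hand2, Gata2, Gata3, Isl1 and Mycn. The 250 bases before the start are printed 5′ to 3′ for Phox2a (chr7:101818063-101818312, plus strand), Hand2 (chr8:57320733-57320982, plus strand) and Isl1 (chr13:116309689-116309938, minus strand). Capitals mark the GATA core GATAA read on either strand (TTATC on the other) and the homeodomain core TAATTA.
Phox2a: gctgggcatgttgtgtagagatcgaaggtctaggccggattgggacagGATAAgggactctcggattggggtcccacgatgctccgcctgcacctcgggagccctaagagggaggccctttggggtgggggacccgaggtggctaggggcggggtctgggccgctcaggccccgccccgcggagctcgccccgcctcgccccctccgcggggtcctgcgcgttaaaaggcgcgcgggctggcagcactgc
Hand2: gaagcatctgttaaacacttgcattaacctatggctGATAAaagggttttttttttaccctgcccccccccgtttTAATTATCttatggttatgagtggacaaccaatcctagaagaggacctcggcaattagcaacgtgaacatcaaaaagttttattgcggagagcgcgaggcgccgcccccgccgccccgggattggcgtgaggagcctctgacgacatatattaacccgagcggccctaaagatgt
Isl1: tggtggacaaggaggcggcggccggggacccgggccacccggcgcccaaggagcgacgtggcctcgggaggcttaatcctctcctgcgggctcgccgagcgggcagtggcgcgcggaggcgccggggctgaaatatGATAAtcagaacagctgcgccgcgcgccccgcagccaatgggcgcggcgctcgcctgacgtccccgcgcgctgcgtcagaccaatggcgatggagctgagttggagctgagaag
The whole windows of these 3 genes, printed for that reason, hold GATAA on either strand, and those of Gata2 (2 windows), Gata3 and Mycn do not. This split is not the split by change given below. Isl1 was not called changed (adjusted p = 0.0689, edgeR), and Tbx2, which was called lower, had no matched window. Whether the letters go with the change was not tested. Over all 32851 RefSeq promoter windows of the same length, 25.4% hold it. The Phox2a window has 1 match, starting at position -202 from the start site. The Hand2 window has 2, starting at -214 and -172, and the latter overlaps the TAATTA that starts at -175. TAATTA is present in 5.29% of all windows and in no other of the members' windows. Isl1 also has 2 matches, at -114 and, after the start site and so outside the printed bases, at +12. The general E-box CANNTG, in 72.3% of all windows, was present for all 6 genes. Its MYC-type form CACGTG, in 7.15% of all windows, was found in none of the members' windows. The T-box core GGTGTGA, in 3.98% of all windows, was found once, in a Gata2 window, and the cyclic-AMP element TGACGTCA (1.79%) in none. GC content was 71.3% for Phox2a, 69.0% for Isl1 and 50.3% for Hand2. A match here is a description of letters; no binding was measured.

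The 6 libraries held between 29739422 and 34248514 counts assigned to genes, and 15117 genes passed the filter on low counts. Of these, edgeR's quasi-likelihood test called 2829 changed at a Benjamini-Hochberg adjusted p under 0.05, which is 18.7%. Genes called lower with CRISPRa made up 9.25% and genes called higher 9.47%. In each group 1 library stood apart from the other pair, CRISPRa replicate 5 and no-sgRNA replicate 4. Scn2a, the sodium channel gene the series is directed at, had 7.81 ± 0.714 CPM (counts scaled to a common library size; SD, n = 3) with CRISPRa and 5.61 ± 1.31 without sgRNA (log2 fold change 0.48, adjusted p = 0.0899, edgeR). All 10 genes of an interferon-response list were higher, with a summed level of 1358 to 1546 CPM against 43.0 to 47.6 CPM. The part of that response in the results below was not tested.

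The cells carried the mRNA of the lineage the label names. Of 9 sympathoadrenal markers, which include several of the 8 factors, 8 were at 1 CPM or above, and their summed level was 3050 to 3309 CPM without sgRNA and 2490 to 2721 CPM with CRISPRa. All 3 cholinergic markers were under 1 CPM. Markers of Schwann cells summed to 26.3 to 29.9 CPM without sgRNA and 32.2 to 34.9 with CRISPRa, mainly from Erbb3, with Foxd3 at 0. Those of fibroblasts summed to 87.1 to 104 and 108 to 114 CPM, mainly from Pdgfrb, which was called higher (87.5 to 104 CPM, adjusted p = 0.0376, edgeR), with Postn at 0. Col1a2 of the same list was called lower (8.24 to 4.46 CPM, log2 fold change -0.88, adjusted p = 0.00659), and Dcn was at 1.25 CPM in the controls and 0.881 CPM with CRISPRa. Leukocyte markers summed to at most 1.65 CPM, with Itgam and Cd3e at 0. Endothelial markers summed to 10.1 to 13.7 and 8.42 to 11.6 CPM, mainly from Pecam1 (10.8 to 7.75 CPM, not called), with Kdr at 0. Cdh5 of the same list was called higher at a low level (0.408 to 1.70 CPM, adjusted p = 0.0105, edgeR). The part of these markers in the results below was not tested.

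Without a guide, the 8 mRNAs covered a wide range of levels, compared here as CPM per kilobase of exon (RPKM; mean ± SD, n = 3). Hand2 was the highest of them at 176 ± 7.19 RPKM. Myc followed at 152 ± 4.52 and Phox2a at 146 ± 9.70, and the ranges of these latter overlapped (149 to 157 against 138 to 157). These 3 stood near the top of the tested genes, at percentiles 98.7, 98.4 and 98.4. Tbx2 at 45.0 ± 1.95 RPKM and Gata2 at 43.5 ± 1.76 formed a middle pair whose ranges overlapped, at percentiles 93.3 and 93.0. Mycn was lower, at 8.79 ± 0.299 RPKM and percentile 62.9. Gata3 and Isl1 were the lowest, at 3.90 ± 0.395 and 2.30 ± 0.0384 RPKM, below the median tested gene. Within each family 1 member predominated: Myc was 17.0 to 17.6 times Mycn per length, and Gata2 was 9.79 to 12.4 times Gata3. The third MYC family gene, Mycl, was at 1.48 RPKM.

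Against that starting point, 3 of the 8 factors fell with CRISPRa and none rose. The 3 were Phox2a, Hand2 and Tbx2, whose means were 62.1%, 74.1% and 72.0% of the no-sgRNA means. Over all tested genes 18.7% were called in either direction and 9.25% lower. The groups did not overlap for 5 of the 8 factors, all lower with CRISPRa (Phox2a, Hand2, Tbx2, Isl1 and, by a narrow margin, Myc); this pattern held for 18.7% of all tested genes. The median log2 fold change was -0.24 over the 8 and -0.01 over all tested genes. With 8 members, these shares carry no test of their own. In bulk RNA, fewer cells that express a factor and less of its RNA per cell cannot be told apart.

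Phox2a, a homeodomain factor needed for noradrenergic neuron identity and an activator of the dopamine beta-hydroxylase gene, showed the largest fall of the 8. Its level was 281, 292 and 320 CPM in no-sgRNA replicates 2, 3 and 4, and 212, 211 and 132 CPM in CRISPRa replicates 2, 3 and 5. Every CRISPRa library lay below every control, and replicate 5 lay well below the other CRISPRa pair, at 0.626 of their mean. The means were 185 ± 45.6 against 298 ± 19.7 CPM (SD, n = 3). The log2 fold change was -0.69 (SE 0.13) with an adjusted p of 0.00204 by edgeR. Leaving out CRISPRa replicate 5 gave -0.49 with an adjusted p of 0.000292. The gene lies at chr7:101818313-101822726 on GRCm38 and is protein coding.

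Hand2, a basic helix-loop-helix factor of sympathetic neuron development, fell with the smallest standard error of the 3. It was at 395, 417 and 429 CPM in the controls and at 318, 321 and 280 CPM with CRISPRa. All 3 CRISPRa libraries lay below the controls, with replicate 5 again the lowest, at 0.878 of the mean of the others. The means were 306 ± 22.6 against 414 ± 16.9 CPM, a log2 fold change of -0.43 (SE 0.07, adjusted p = 0.000507, edgeR). Hand2 lies at chr8:57320983-57324633. Its neighbour Hand2os1, a long noncoding RNA on the minus strand, shares 461 bases with Hand2 exons, 19.6% of them, in GENCODE M21, where its span ends inside Hand2. RefSeq places a start of Hand2os1 outside Hand2, 124 bases from the Hand2 start. Hand2os1 did not pass the test, at 158, 153 and 134 CPM in the controls and 153, 144 and 129 CPM with CRISPRa (log2 fold change -0.06, adjusted p = 0.643, edgeR), and whether it differed from Hand2 in its change was not tested. Whether the counting used strand is not given in the sources used here. Reads from the shared bases may therefore have been counted for 1 of these genes, for both or for neither.

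Tbx2, a T-box repressor of cell-cycle inhibitors, fell with a wider spread than Hand2. It was at 156, 165 and 169 CPM in the controls and at 134, 130 and 88.2 CPM with CRISPRa. The groups did not overlap, and CRISPRa replicate 5 was at 0.667 of the mean of the other CRISPRa pair. The means were 118 ± 25.5 against 163 ± 7.06 CPM, a log2 fold change of -0.47 (SE 0.12, adjusted p = 0.0109, edgeR). Without CRISPRa replicate 5 the log2 fold change was -0.30 with an adjusted p of 0.00844, a change of over 1.5 times in size with the call kept. The gene lies at chr11:85832551-85841948. Its paralog Tbx3 was far less abundant and fell too, from 20.7, 22.4 and 26.0 CPM to 13.4, 11.5 and 12.5 CPM (log2 fold change -0.89, adjusted p = 0.000131, edgeR). Here CRISPRa replicate 5 lay between the other CRISPRa libraries.

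Isl1, a LIM-homeodomain factor of sympathetic neuron differentiation, was the least abundant factor and was not called. It had 273, 274 and 291 counts in the controls and 292, 189 and 158 counts with CRISPRa, or 8.95, 9.23 and 9.19 against 8.47, 5.79 and 4.87 CPM. The controls lay close together, while CRISPRa replicate 2 was near them and the other CRISPRa pair was lower. The log2 fold change was -0.51 (SE 0.19, adjusted p = 0.0689, edgeR), a size between those of Phox2a and Tbx2 with a wider error. It passed the threshold without CRISPRa replicate 2 (-0.76, adjusted p = 0.00931) and missed it without CRISPRa replicate 5 (-0.35, adjusted p = 0.222), so the call turns on which of these libraries is used. With no filter on low counts the adjusted p was 0.0251. The gene lies at chr13:116298281-116309689.

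**Figure D1:**
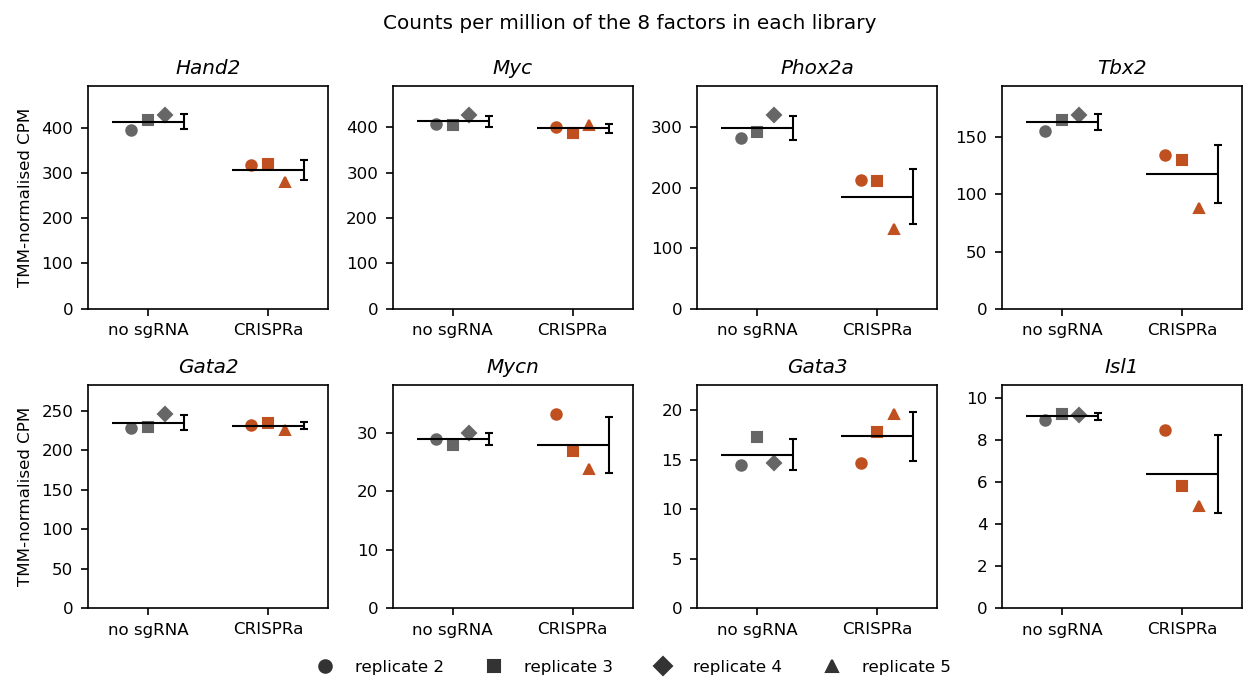
Level of each factor in each library in CPM, 1 panel per gene with its own axis from 0, points for libraries, horizontal lines for group means and error bars for the SD. Phox2a falls from 281 to 320 CPM in the controls to 132 to 212 CPM, while the Gata2 groups overlap.

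Gata2, a zinc finger factor that acts upstream of noradrenergic differentiation, held its level within the spread. It was at 229, 230 and 246 CPM in the controls and at 233, 235 and 226 CPM with CRISPRa. The groups overlapped, and the log2 fold change was -0.02 (SE 0.06, adjusted p = 0.849, edgeR). Gata3, its partner in sympathetic neurons, was at 14.5, 17.3 and 14.7 CPM in the controls and 14.7, 17.8 and 19.6 CPM with CRISPRa. The log2 fold change was 0.16 (SE 0.13, adjusted p = 0.421, edgeR), and CRISPRa replicate 5, the lowest library for Phox2a, Hand2 and Tbx2, was the highest for Gata3. Gata4, a paralog better known from heart and gonad, was also abundant, at 155 ± 1.77 CPM in the controls and 160 ± 2.22 CPM with CRISPRa, and was not called (adjusted p = 0.692, edgeR). Gata2 lies at chr6:88193891-88207032 and Gata3 at chr2:9857078-9890034.

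The MYC genes, which encode the growth-driving factors of this tumour, were not called. Mycn was at 29.0, 28.0 and 29.95 CPM in the controls and at 33.2, 27.0 and 23.8 CPM with CRISPRa. The CRISPRa libraries lay on both sides of the controls, with a log2 fold change of -0.05 (SE 0.11, adjusted p = 0.812, edgeR). Myc was at 406, 405 and 427 CPM in the controls and at 401, 387 and 405 CPM with CRISPRa. Its groups were separated only by the step from 404.8 to 405.4 CPM, and the log2 fold change was -0.05 (SE 0.06, adjusted p = 0.576, edgeR). Per length Myc was 14.6, 17.4 and 20.6 times Mycn with CRISPRa, a range that spans the 17.0 to 17.6 of the controls. Mycn lies at chr12:12936093-12941914 and Myc at chr15:61985391-61990374. Mycl, the least abundant of the family, was called higher, with 7.08, 6.53 and 4.30 CPM in the controls and 10.2, 8.33 and 16.4 CPM with CRISPRa (log2 fold change 0.96, adjusted p = 0.0103, edgeR). That call was lost without CRISPRa replicate 5 (0.64, adjusted p = 0.0505) and without no-sgRNA replicate 4 (0.77, adjusted p = 0.0541), and in the 4 libraries numbered 2 and 3 (0.44, adjusted p = 0.0799).

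Library CRISPRa replicate 5 was the lowest of the 6 for 6 of the 8 factors, and no-sgRNA replicate 4 was the highest for 5 of 8. Both libraries stood apart from their group over all genes, and the share of all genes with these patterns was not counted. The 3 calls did not rest on these libraries alone. In the 4 libraries numbered 2 and 3 the log2 fold changes were -0.44 for Phox2a, -0.35 for Hand2 and -0.27 for Tbx2, with adjusted p-values of 8.38e-07, 9.97e-06 and 0.001 by edgeR. Isl1 had -0.35 there, with an adjusted p of 0.221. These 4 libraries leave out the one that stood apart in each group, so the p-values of the 3 factors carry less of the spread. The SE was 0.047 for Phox2a, 0.045 for Hand2 and 0.054 for Tbx2, against 0.131, 0.068 and 0.117 with all 6 libraries. Phox2a and Hand2 were called in each of 13 other settings and with each library left out. Tbx2 missed only the stricter threshold of 0.01. Over these settings the log2 fold change ran from -0.79 to -0.39 for Phox2a, from -0.47 to -0.31 for Hand2 and from -0.57 to -0.26 for Tbx2.

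**Figure D2:**
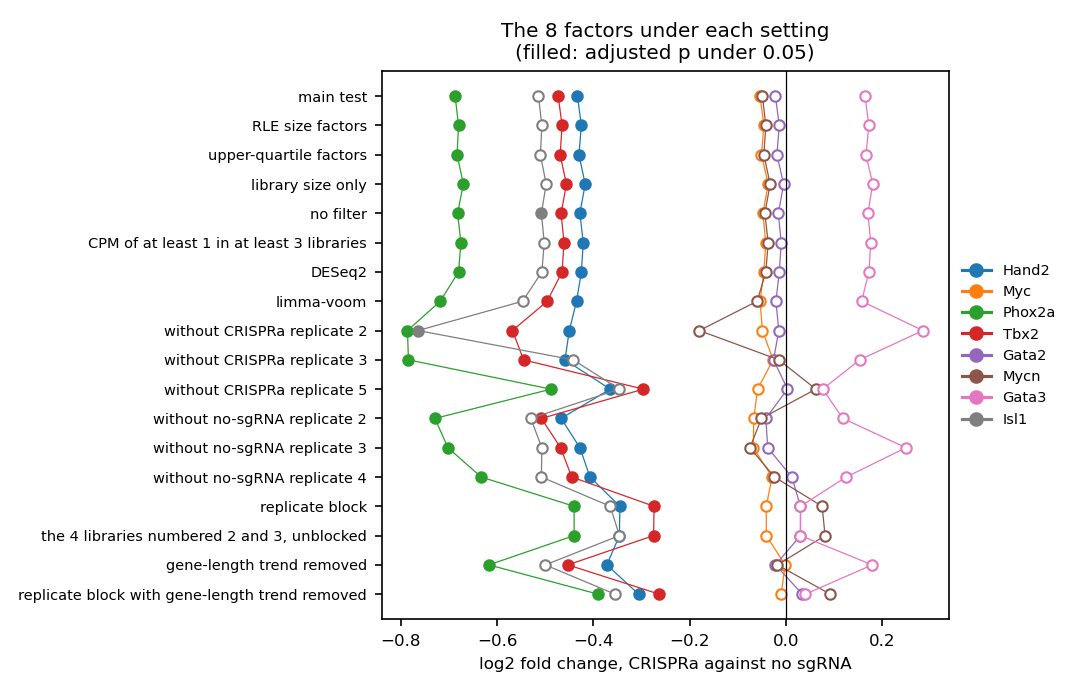
Log2 fold change of each factor under each processing setting, with filled points where the adjusted p was under 0.05. Phox2a, Hand2 and Tbx2 are filled in every setting plotted and Isl1 in some, whereas Gata2 and Mycn lie on both sides of 0.

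The authors' deposited table, which by its name covers 8 samples, lists all 8 factors; the labels' 8 samples include the 6 used here. At its adjusted p under 0.05, 13.8% of the genes in it were lower, with the sign read as CRISPRa against no sgRNA because the 10 interferon-response genes are all positive in it. In the authors' deposited table Phox2a had a log2 fold change of -0.53 (adjusted p = 0.00167), Hand2 -0.40 (1.38e-12) and Tbx2 -0.34 (0.000448). The authors' deposited table gives Isl1 as -0.41 (0.0948), and the other 4 factors lay between -0.06 and 0.06. The same 3 factors therefore passed the threshold in both, but the samples are shared, so the table is not separate evidence.

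The wider circuit was read from lists of related genes. Of 24 other factors of the adrenergic state, 16 were tested, 4 fell and 1 rose, beside 9.25% and 9.47% of all tested genes, with a median log2 fold change of -0.09 against -0.01 over all. Insm1, a zinc finger factor of neuroendocrine differentiation, fell from 284, 304 and 280 CPM to 193, 194 and 181 CPM. The groups stood far apart with little spread (log2 fold change -0.61, SE 0.06, adjusted p = 9.41e-06, edgeR). Meis1, a homeodomain cofactor, fell from 39.5 ± 2.47 to 27.1 ± 2.85 CPM (adjusted p = 0.00124). Tfap2b, a sympathetic lineage factor at low level, went from 6.76 ± 1.22 to 3.89 ± 1.05 CPM (log2 fold change -0.80, adjusted p = 0.0212), a call that was lost without CRISPRa replicate 5 (adjusted p = 0.0679), no-sgRNA replicate 2 (0.0875) or no-sgRNA replicate 4 (0.0582). Ebf3, which like Gata4 is named after its values were seen, completed those that fell, at 140 ± 11.2 against 180 ± 4.78 CPM (adjusted p = 0.00218). Klf7, a Krüppel-like factor of neuron outgrowth, was the one that rose, from 137 ± 14.1 to 168 ± 4.75 CPM (adjusted p = 0.0143, and 0.0583 without CRISPRa replicate 3).

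Among 11 paralogs of the members, 6 were tested, with Tbx3 lower and Mycl higher as given above. The Hand2 paralog Hand1, at no more than 0.34 CPM, was too low to test. Hand2 was thus the only HAND factor mRNA tested.

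**Figure D3:**
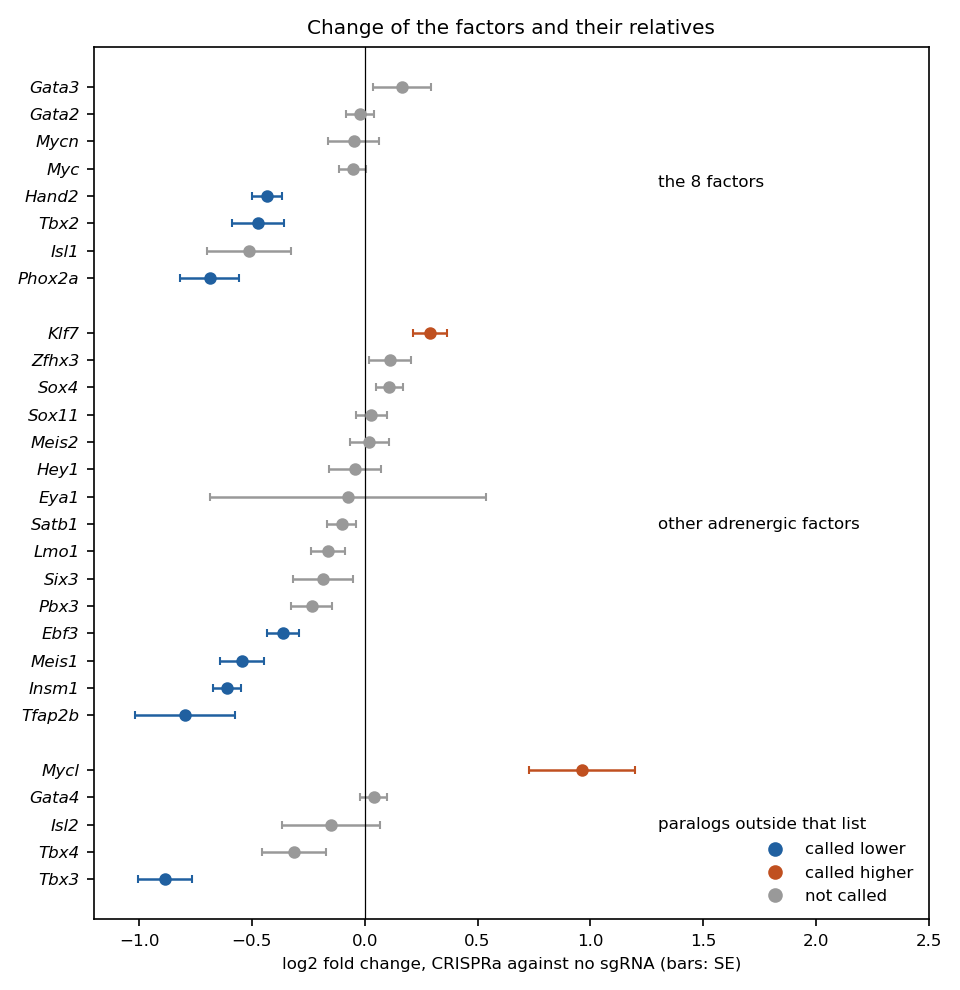
Log2 fold change, CRISPRa against no sgRNA, of the 8 factors, other tested adrenergic factors reported here and further paralogs, with SE bars and colour for the call. Phox2a, Hand2 and Tbx2 are called lower at -0.69, -0.43 and -0.47, and Mycl is the paralog called higher.

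Of 25 factors of the mesenchymal state, 16 were tested, 5 were called higher and none lower, beside 9.47% and 9.25% of all tested genes. The median log2 fold change was 0.17, with 11 of the 16 positive and 5 negative. Id1 was lower without overlap of the groups but not called (-0.19, adjusted p = 0.0707, edgeR). In the authors' deposited table it passed as lower (adjusted p = 0.0136). Prrx1, at 2.19 CPM in the controls and 3.49 CPM with CRISPRa, was not called (adjusted p = 0.131, edgeR). The largest rise was in Aebp1, a transcriptional repressor and matrix-linked protein, from 131, 129 and 112 CPM to 230, 222 and 278 CPM (log2 fold change 0.97, adjusted p = 2.26e-06, edgeR). All 3 CRISPRa libraries lay far above the controls. The AP-1 subunits Jun and Fosl2 rose from 68.7 ± 5.78 to 91.0 ± 4.08 CPM and from 61.3 ± 5.72 to 79.2 ± 4.79 CPM (adjusted p = 0.00193 and 0.00566). Wwtr1, the Hippo-pathway coactivator TAZ, and Notch2, a receptor, were the others, with log2 fold changes of 0.24 and 0.30. The call of Notch2 was lost without CRISPRa replicate 2, CRISPRa replicate 3, no-sgRNA replicate 3 or no-sgRNA replicate 4. Without no-sgRNA replicate 3 that of Wwtr1 was lost too, and only 3 of the list were called. The fibroblast markers given above were higher in sum through Pdgfrb while Col1a2 was lower, and their part in this was not tested.

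The partners and regulators of MYC proteins moved in both directions. All 19 on the list were tested, and 3 rose and 3 fell, beside 9.47% and 9.25% of all tested genes. Max, the obligate partner, was not called, at 63.9 ± 3.52 CPM in the controls and 59.5 ± 1.90 CPM with CRISPRa (adjusted p = 0.376, edgeR). Aurka, a mitotic kinase that stabilises MYCN protein, fell from 63.0 ± 5.82 to 40.5 ± 2.51 CPM (log2 fold change -0.64, adjusted p = 0.000148). Mxd3, a MAX-binding antagonist, fell from 11.8, 11.4 and 12.9 CPM to 7.55, 7.63 and 6.10 CPM (adjusted p = 0.00173). Mxi1 was lower (log2 fold change -0.25, adjusted p = 0.0337) and Huwe1, a ubiquitin ligase for MYC proteins, higher (0.30, 0.0372), as were Lin28a, an RNA-binding protein (0.29, 0.042), and Mycl. These calls were fragile: that of Mxi1 was kept only without no-sgRNA replicate 2 (elsewhere adjusted p = 0.056 to 0.122) and that of Lin28a only without no-sgRNA replicate 4 (elsewhere 0.068 to 0.166). That of Huwe1 was kept without CRISPRa replicate 2 or no-sgRNA replicate 2 (elsewhere 0.075 to 0.11), and its log2 fold change was 0.18 without no-sgRNA replicate 4. With each library's gene-length trend removed, Huwe1 had 0.14 and was not called (adjusted p = 0.192). The count of 6 fell to 2 without CRISPRa replicate 5 and to 3 without CRISPRa replicate 3, no-sgRNA replicate 3 or no-sgRNA replicate 4.

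Among genes that MYC proteins are known to activate, the number of calls depended on the libraries used. Of 30 on the list 29 were tested, 2 fell and none rose, beside 9.25% and 9.47% of all tested genes, with a median log2 fold change of -0.05. Ldha, which makes lactate dehydrogenase A, was at 2526, 2528 and 2970 CPM in the controls and 2191, 2138 and 1677 CPM with CRISPRa (log2 fold change -0.42, adjusted p = 0.0063, edgeR). Its CRISPRa replicate 5 was the lowest library, as for Phox2a. Rrs1, a ribosome assembly factor, was the other (-0.28, adjusted p = 0.0112), and its call was lost without CRISPRa replicate 2 (adjusted p = 0.0615), CRISPRa replicate 3 (0.0744) or no-sgRNA replicate 3 (0.0573). In the 4 libraries numbered 2 and 3, 12 of the 29 targets were called, 11 of them lower and 1 higher. Over all 15305 genes tested there, 2830 were called, 1390 of them lower. Ldha had a log2 fold change of -0.22 in these libraries. The authors' deposited table gives 12 targets past its threshold, 11 of them lower, beside the 13.8% of all its genes that are lower.

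Genes that carry out the sympathoadrenal programme moved in both directions. Of 20 listed, 18 were tested, 5 rose and 2 fell, beside 9.47% and 9.25% of all tested genes, and the median log2 fold change was 0.05. Th, tyrosine hydroxylase, was at 8.50 ± 1.24 CPM in the controls and 8.25 ± 1.83 CPM with CRISPRa (adjusted p = 0.902, edgeR). Dbh, dopamine beta-hydroxylase, was at 57.8 ± 6.35 and 60.0 ± 10.7 CPM (adjusted p = 0.793). Neither of these noradrenaline synthesis genes was called, whereas Slc18a2, a vesicular monoamine transporter, rose from 70.1, 71.1 and 71.2 CPM to 94.6, 99.5 and 100.1 CPM (log2 fold change 0.47, adjusted p = 0.000191). The second such transporter, Slc18a1, and the synthesis gene Ddc were lower without overlap of the groups but not called. Slc18a1 went from 2.27 to 1.43 CPM (-0.66, adjusted p = 0.146, edgeR) and Ddc from 6.32 to 4.50 CPM (-0.49, adjusted p = 0.0845, edgeR). Both passed as lower in the authors' deposited table (adjusted p = 0.01996 and 0.0245). Alk, a receptor kinase mutated in neuroblastoma, rose from 77.6 ± 12.4 to 117 ± 3.20 CPM (0.59, adjusted p = 0.000676), and the neurotrophin receptor Ngfr from 323 ± 15.0 to 441 ± 3.36 CPM (0.45, adjusted p = 0.000148). Dlk1, a Notch-family ligand of chromaffin cells, fell from 273, 285 and 308 CPM to 233, 224 and 169 CPM (-0.47, adjusted p = 0.00402), with CRISPRa replicate 5 again lowest and -0.28 in the 4 libraries numbered 2 and 3. Prph, the intermediate filament peripherin, fell by 0.26 on the log2 scale (adjusted p = 0.0093).

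**Figure D4:**
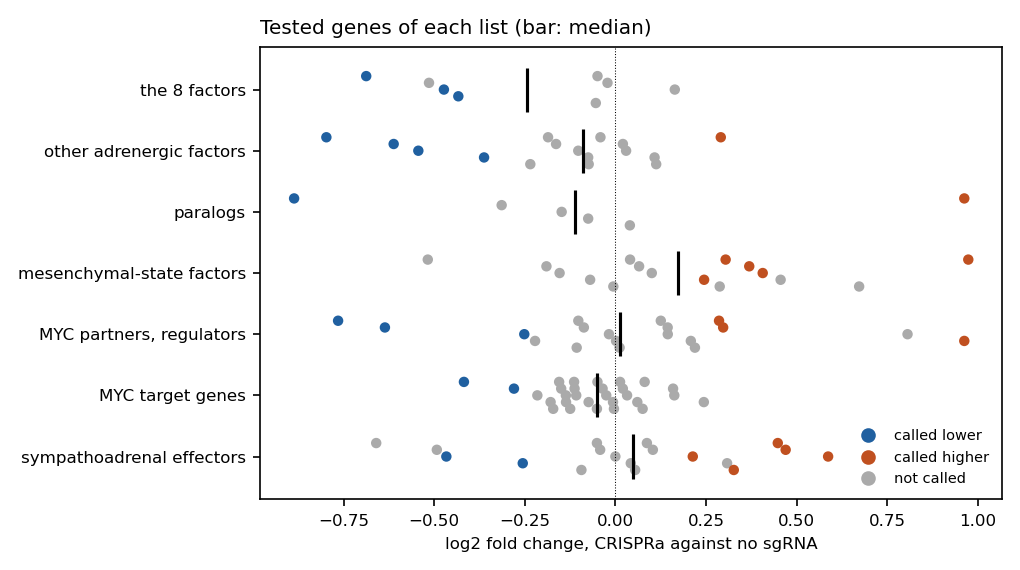
Log2 fold change of every tested gene of the members and of 6 related lists, with a bar for each median. The 8 factors have a median of -0.24 and the mesenchymal-state factors a median of 0.17.

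Transcripts near the 8 genes were checked, since reads or local changes could be shared. Within 10 kb of the members lay 14 other genes, of which 8 were tested and 2 called, beside 18.7% of all tested genes. 5033428I22Rik, downstream of Hand2, fell from 47.8 ± 4.19 to 35.0 ± 3.67 CPM (log2 fold change -0.45, adjusted p = 0.00459, edgeR). Bcas3, which ends upstream of Tbx2, rose from 7.34 ± 1.72 to 11.8 ± 2.35 CPM (0.68, adjusted p = 0.0181). Inppl1, which shares 95 bases with Phox2a exons on the other strand, 4.67% of them, had -0.18 with an adjusted p of 0.0807. Gm34030, Gm38708, 4930412O13Rik and 2610027K06Rik were not called, with log2 fold changes from -0.90 to 0.31. Of the same-strand 50-base words of the 8 genes, only those of Gata3 recurred in another gene's transcripts, at 0.731%. The call of Bcas3 was lost, and 1 neighbour left, without CRISPRa replicate 5, no-sgRNA replicate 2 or no-sgRNA replicate 4.

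The tested genes whose levels ran most like each factor over the 6 libraries were found by Pearson's r of log2 CPM, as a description with no test. For Phox2a they were Selenbp1 (r = 0.999) and Tmem176a (0.998). For Hand2 they were Troap and Shox2 (both 0.999), and for Tbx2 they were Amhr2 (0.999) and Aldoc (0.996). Isl1 was nearest to Armc9 (0.991) and Rhobtb1 (0.988). Gata2 was nearest to Cttn (0.994) and Actb (0.991), and Gata3 to Gpr161 (0.979) and Lrrc59 (0.978). Mycn was nearest to Gm9833 (0.993) and Nfatc1 (0.981), and Myc to Glt8d1 (0.996) and Gphn (0.987). With 6 libraries in 2 groups such values are common: 240 genes ranked the libraries in the same order as Phox2a, and 5 in the same order as Mycn.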

How the data were processed

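Poly(A)-enriched RNA from 8 Neuro2a samples, 4 per group, is described in the labels, and groups were taken from the sample titles. The submitters' processing notes name STAR 2.5.1b, featureCounts and the build mm10, without giving their roles; annotation, strand setting and the handling of multi-mapping reads are not given in the sources used here. The authors deposited whole-number counts per gene for 6 of the samples, with each gene's exon length in bases. The planned tests assumed all 8; CRISPRa replicate 1 and replicate 5 of the no-sgRNA group are not analysed here. A second deposited table holds the authors' own comparison: a mean normalised signal, a log2 fold change with its SE, a Wald score and p-values, per the file headers.

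The counts were tested with edgeR 4.0.16 (R 4.3.3; glmQLFit, glmQLFTest, filterByExpr defaults, TMM scaling, no covariate), after the scripts were tested on simulated data. P-values were adjusted by the Benjamini-Hochberg method over all 15117 tested genes, and called means an adjusted p under 0.05. CPM are TMM-scaled. The SE is the log2 fold change divided by the square root of F. RPKM is CPM per kilobase of the deposited exon length.

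Named genes were the 8 members, neighbours within 10 kb with at least 10 counts, the 3 largest calls per direction of each related list with a mean CPM of at least 5, fixed genes of interest (among them Hand1, Mycl, Max, Th, Dbh and Scn2a) and the 2 most similar genes per member with a mean CPM of at least 10; genes named beyond this were chosen after their values were seen. Values of some genes under this rule were left out; they still enter the list counts. The members and lists were chosen with earlier results of these data known, and the motifs with the promoter sequences in view. Alternatives were RLE, upper-quartile and library-size scaling, other filters, DESeq2 1.42.0, limma 3.58.1 with voom weights, leaving out each library, the replicate block, gene-length trend removal and adjusted p thresholds of 0.01 and 0.1. Gene spans are those of GENCODE M21 on GRCm38, which matched the deposited spans of all 8 genes.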

Additional observations from a re-analysis of the deposited data

How the results depend on the processing

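The member count of 3 ranged from 3 to 4 with a library left out. Of all 15117 tested genes, 1417 were called at an adjusted p of 0.01 and 3855 at 0.1. At 0.01 the related counts became 3 for adrenergic factors (5 at 0.05), 1 for paralogs (2) and 3 for mesenchymal factors (5). They were 2 for MYC partners (6), 1 for MYC targets (2) and 1 for neighbours (2). At 0.1, MYC targets gave 6 of 29 tested and neighbours 4. With a library left out, the ranges were 4 to 5 for adrenergic factors, 1 to 2 for paralogs, 3 to 6 for mesenchymal factors, 2 to 5 for MYC partners, 1 to 3 for MYC targets, 6 to 7 for effectors and 1 to 2 for neighbours. Over all genes, 1987 to 2518 of the 15454 to 15558 tested were called with a library left out. DESeq2 called 4 MYC targets, beside 3093 of all 15117 tested genes. Whether the replicate numbers shared by the groups (2 and 3) pair the libraries was not settled. The deviations of same-numbered libraries from their group means correlated at -0.0046 and -0.026. Those means include the library that stood apart in each group, which could hide a shared effect. With the replicate block over those 4 libraries, 12 MYC targets and 1 paralog were called, beside 3170 of all 15305 tested genes. The same 4 libraries without the block gave 12 and 1, beside 2830 of all. The block with the gene-length trend removed gave 10 MYC targets, beside 3271 of all. Sign changed for Gata2, Mycn, Th and Dbh, none of them called with all libraries. Gata2 was at 0.003 without CRISPRa replicate 5, 0.012 without no-sgRNA replicate 4, 0.030 with the block, 0.030 in the 4 libraries and 0.034 with the block and length trend (-0.042 to 0.012 with a library left out). Mycn was at 0.062 without CRISPRa replicate 5, 0.075 with the block, 0.081 in the 4 libraries and 0.092 with the block and length trend (-0.180 to 0.062). Th was at 0.113 and 0.068 without those libraries in turn, 0.213 with the block, 0.216 in the 4 libraries, 0.021 with the length trend removed and 0.251 with both (-0.206 to 0.113). Dbh was at -0.030 without CRISPRa replicate 3 and -0.001 without no-sgRNA replicate 2 (-0.030 to 0.202), and passed the threshold in 1 setting, the block with the length trend removed (0.197, adjusted p = 0.0407). Huwe1 was at 0.041 there (adjusted p = 0.544). The cause of these shifts was not tested. Spearman's rho gave no order of similar genes, because many tied at the highest value. With 158 to 292 counts per library, Isl1 was the factor whose precision depth limits most.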

Other observations

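Of the 126 distinct genes on the 6 related lists, 14 had no count in any of the 6 libraries. Among them were the Hippo-pathway coactivator Yap1, whose paralog Wwtr1 was at 153 to 199 CPM, and the adrenergic-state factors Klf13, Dach1, Ebf1 and Insm2. The mesenchymal factors Twist1, Tbx18, Meox2 and Glis3, the paralogs Gata1, Gata6 and Tbx5, and the noradrenaline transporter Slc6a2 and adrenaline-forming enzyme Pnmt made up the others. At these depths a count of 0 allows a level of up to 0.0876 to 0.101 CPM per library, for counting error only. Whether a 0 in every library reflects the cells or the counting was not tested.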
